A study of Mus musculus with 6 samples.

Results

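The proliferins encoded by Prl2c2 and Prl2c3 are secreted glycoproteins of the prolactin and growth hormone family. They are near-identical neighbours on mouse chromosome 13, and they were chosen here by their symbols in the deposited count table, where they are 2 of 15528 listed genes. The 2 genes were chosen because their counts differed between the study's groups, so their own levels are given as a description, without a test. The RNA came from mouse cells that the labels call lymphatic endothelial, the type that lines lymphatic vessels, and was made into stranded mRNA libraries. There were 3 control libraries and 3 libraries from cells treated with red blood cells, and all 6 are labelled with a time of 24 h. The labels give no strain, genotype, age, cell source or passage for either group, and do not say that replicates were separate cultures, so p-values measure only the spread between libraries, which may be technical. The study as a whole is on brain injury after bleeding around the brain, and on the lymph nodes of the neck. Values of single libraries are given throughout in the order of replicates 1, 2 and 3.

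In the mouse, proliferin is best known as a hormone of placental trophoblast giant cells that draws maternal vessels toward the implantation site. It was first found in cultured mouse cells that had been stimulated to grow, and its production in such cells depends on serum and growth factors. Secreted proliferin carries mannose 6-phosphate, binds the receptor Igf2r on endothelial cells, and is known to promote their migration through a Gi protein and MAP kinases. The proliferin gene is also a textbook target of AP-1 (Fos and Jun proteins) and the glucocorticoid receptor, which act together at a composite element upstream of its start.

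Total counts per library ranged from 17263359 to 18381419. Control replicate 2 differed from the other controls far more than those did from each other: the chi-square statistic per gene was 27.1 and 25.7 against controls 1 and 3, 1.96 between those, and 1.70 to 2.08 among the treated libraries. Of the defining endothelial markers several were at or near 0 and others were present. Pecam1, an adhesion molecule of endothelium, had 14.98 CPM (CPM are counts scaled to a common library total) in the controls, and Flt4, a receptor of lymphatic vessels, 3.62 CPM. Kdr had 0 counts in the controls, and Cdh5, Tek, Pdpn and Sox18 had 7, 3, 6 and 2; Prox1 and Lyve1 are not listed. The 12 listed markers of 16 summed to 482 to 589 CPM in the controls and 611 to 645 CPM with red blood cells, most of it from Nrp2, Nr2f2 and Eng. Nrp2 had 272 and 361 CPM, and of the 6 tested markers it alone had a positive log2 fold change. The other 5 had negative ones, among them Nr2f2 (161 and 146 CPM) and Pecam1 (14.98 and 13.7 CPM). Fibroblast and mural markers summed to 443 to 493 and 452 to 470 CPM, nearly all from Col1a2 (464 and 448 CPM), while Col1a1, Lum, Dcn and Acta2 had 6, 0, 3 and 7 counts over the controls. Epithelial and mesothelial markers summed to 645 to 722 and 602 to 623 CPM, mostly from Krt8 (448 and 390 CPM) and Msln (187 and 190.2 CPM). Of the 6, 3 and 3 tested genes of these lists edgeR called 0, with 2, 1 and 2 at an unadjusted p under 0.05. Over all 11208 tested genes it called 164 (1.46%), and 1120 had an unadjusted p under 0.05. Krt18, of the epithelial list, had 44.8 and 32.1 CPM (edgeR's adjusted p = 0.0838). The absence of calls does not show that these markers were unchanged.

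The 2 copies can barely be told apart by sequence, and this sets what their separate counts can mean. The annotated coding sequences have 675 bases in both genes, spread over 5 exons on the minus strand, and differ at 3 positions (99.56% identity; GENCODE transcripts on GRCm38). Counted from the A of the start codon, with the Prl2c2 base first, these are T14C in exon 1, C200A in exon 2 and T319G in exon 4. They are shown because a read must cover such a position to separate the copies within the coding part; the capital is the differing base and each line runs 5′ to 3′ along the coding strand.
Prl2c2, position 14: atgctcccttcttTgattcaaccatgct
Prl2c3, position 14: atgctcccttcttCgattcaaccatgct
Prl2c2, position 200: ttcagaactgttcaCtgaatttgaaaaac
Prl2c3, position 200: ttcagaactgttcaAtgaatttgaaaaac
Prl2c2, position 319: ggctcacacactatTcagctcttctgaaa
Prl2c3, position 319: ggctcacacactatGcagctcttctgaaa
The rest of the coding sequence is shared, with 356 identical bases in the longest run. Of all 100-base windows of the Prl2c2 transcript, 63.53% occur letter for letter in the Prl2c3 transcript, and at 150 bases 50.94% still do. Another copy on the same chromosome, Prl2c5, is more distant, with 96.15% coding identity to Prl2c2 and 2.826% of the 100-base windows shared. Read length and the handling of reads that match several places were not given in the sources used here, so the split between Prl2c2 and Prl2c3 is uncertain, and their sum is given beside each.

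Promoter sequences were matched by symbol in a RefSeq table (GRCm38.p6) for Prl2c3 and Prl2c5; Prl2c2 had no entry. They are shown because the region upstream of proliferin holds the AP-1 and glucocorticoid element named above. Each runs from 250 bases before to 50 bases after the annotated start, 5′ to 3′ on the gene's strand, and capitals mark matches to the motifs searched.
Prl2c3, chr13:12800030-12800329, minus strand: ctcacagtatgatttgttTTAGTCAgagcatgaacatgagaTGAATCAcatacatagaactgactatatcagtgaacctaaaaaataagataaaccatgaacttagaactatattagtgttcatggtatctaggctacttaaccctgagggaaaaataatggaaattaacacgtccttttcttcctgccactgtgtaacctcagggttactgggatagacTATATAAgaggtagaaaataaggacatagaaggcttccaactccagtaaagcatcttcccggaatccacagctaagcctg
Prl2c5, chr13:13182466-13182765, plus strand: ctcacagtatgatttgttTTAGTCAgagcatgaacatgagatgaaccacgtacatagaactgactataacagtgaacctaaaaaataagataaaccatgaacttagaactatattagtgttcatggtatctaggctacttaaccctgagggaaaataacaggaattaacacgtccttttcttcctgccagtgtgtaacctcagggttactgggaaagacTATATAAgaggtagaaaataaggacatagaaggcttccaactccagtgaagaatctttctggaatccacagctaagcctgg
The 2 promoters were 95.35% identical. The AP-1 variant TTAGTCA, a motif chosen after the sequences were seen, began 232 bases before the start in both, and 2.35% of the 32851 promoters in the table hold it on either strand. The AP-1 motif TGANTCA occurred in the Prl2c3 promoter only, 209 bases before the start, and in 7.81% of all promoters. The TATA motif TATANAA began 30 bases before the start in Prl2c3 and 31 in Prl2c5 (11.3% of all promoters). The letters TGTTCT of a glucocorticoid receptor site and the NF-kB motif searched were in neither window, and in 19% and 0.411% of all promoters. All motifs were searched on both strands, and no matches in these windows overlapped. A match is a run of letters and does not show a bound site.

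Prl2c2 was an abundant transcript already without red blood cells and was a little over 2-fold higher with them. It had 148, 158 and 138 CPM in the controls; with red blood cells it had 332, 331 and 321 CPM. The groups did not overlap, and the lowest treated library had 2.03 times the CPM of the highest control. Of all tested genes 10.4% likewise had no overlap in this direction, and 9.19% in the lower direction. The means were 148 ± 9.97 and 328 ± 6.12 CPM (SD, n = 3), a ratio of 2.21, and the log2 fold change from edgeR's fit over all genes was 1.15 ± 0.06 (SE). In raw counts these are 7930 and 17821 over the libraries of each group.

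On a scale that allows genes to be compared, Prl2c2 stood high in both groups. In the authors' FPKM values, which divide by gene length, it reached 144 ± 9.67 FPKM without and 318 ± 5.94 FPKM with red blood cells (SD, n = 3). It ranked 417th, 440th and 457th of 15528 listed genes in the controls and 153rd, 156th and 162nd with red blood cells. By the gain in mean CPM, 180, Prl2c2 was 10th among all listed genes. That gain is not divided by gene length and can be large for abundant genes of small relative change. By log2 fold change Prl2c2 was 57th of 11208 tested genes, and 12th of the 8862 with at least 10 CPM on average. Larger gains in CPM included those of Hspg2, the basement membrane proteoglycan perlecan (440 CPM), and of the globin Hbb-bs (329 CPM). Syt7, a calcium sensor of membrane fusion, gained 243 CPM. Abundant genes with small relative changes also ranked above Prl2c2, such as Flna (1935 to 2258 CPM) and Eef2 (2883 to 3128 CPM).

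Prl2c3 had few counts next to its twin and was also higher with red blood cells. It had 29, 39 and 26 raw counts in the controls; with red blood cells it had 86, 83 and 106, without overlap. That is 1.75 ± 0.34 CPM without and 5.06 ± 0.72 CPM with red blood cells (SD, n = 3), a ratio of 2.89 and a log2 fold change of 1.52 ± 0.18 (SE). Per gene length it had 1.78 ± 0.34 and 5.14 ± 0.73 FPKM, and between 58.1% and 61.4% of listed genes stood above it in the controls, against 46.6% to 50.6% with red blood cells. Prl2c2 exceeded it 80.8-fold in the controls and 61.9-fold with red blood cells, in FPKM. Fitted as the sum of both rows, the log2 fold change was 1.15, which is the value for Prl2c2 and not for Prl2c3.

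The sum of the 2 rows therefore follows Prl2c2. It came to 149.8, 160.3 and 139.7 CPM in the controls; with red blood cells it came to 336, 336 and 327 CPM. Means were 149.9 ± 10.3 and 333 ± 5.42 CPM (SD, n = 3), a ratio of 2.22, and the log2 fold change of the summed row was 1.15 ± 0.06 (SE). The coefficient of variation within a group was 6.87% without and 1.63% with red blood cells. Control replicate 2 was the highest control for both genes. Without it the summed log2 fold change was 1.20 ± 0.04 (SE), and with each library left out in turn it lay between 1.10 and 1.20.

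**Figure D1:**
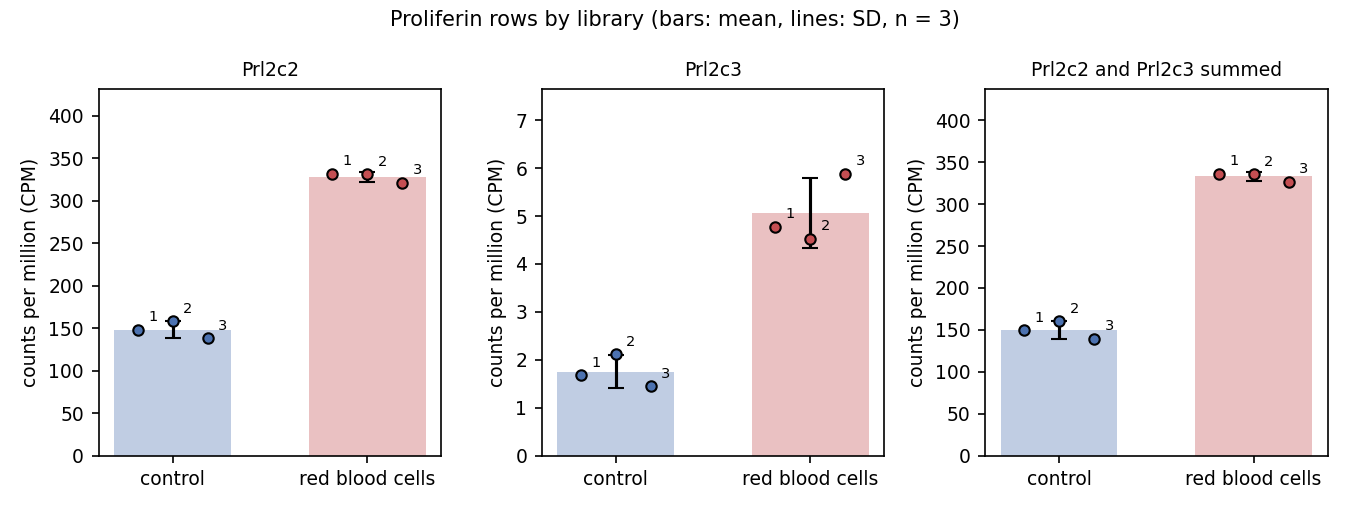
CPM of Prl2c2, Prl2c3 and their sum in each library, in the control and red blood cell groups; bars are means, lines are the SD over 3 libraries, points are libraries numbered by replicate, and every axis starts at 0. In all 3 panels each treated library lies above each control, and the highest library has 5.89 CPM for Prl2c3 and 332 CPM for Prl2c2.

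The share of Prl2c3 in the sum was small in every library. It was 1.12% (Wilson 95% interval 0.782 to 1.61), 1.32% (0.970 to 1.80) and 1.04% (0.713 to 1.52) in the controls. With red blood cells it was 1.42% (1.15 to 1.75), 1.35% (1.09 to 1.67) and 1.80% (1.49 to 2.17). The point values of the groups did not overlap, but the intervals of control replicate 2 and of treated replicates 1 and 2 cover one another's values. These intervals hold counting error only, since the labels name no molecular identifiers and PCR copies are not independent molecules, and they do not hold the error of assigning reads to a copy.

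Other rows with proliferin-like sequence had very few counts. Prl2c5, the remaining proliferin gene listed, had 1, 5 and 3 counts in the controls and 9, 8 and 5 with red blood cells. Its lowest treated and highest control library thus had the same count. It was too low for the filter on low counts; with the filter left off, its log2 fold change was 1.23 ± 0.58 (SE), with edgeR's adjusted p at 0.564. Gm7040, a predicted gene whose transcript holds 23.8% of the 50-base windows of Prl2c2, had 3, 1 and 3 control counts against 10, 13 and 10. It too was below the filter, and without the filter its log2 fold change was 2.16 ± 0.50 (SE; edgeR's adjusted p = 0.0694). For both genes the exact two-sided permutation test gave p = 0.1, the smallest that 3 libraries against 3 allow. Whether reads of Prl2c2 were counted in these rows was not tested. With all 4 rows added up the ratio of group means was 2.22, and rows other than Prl2c2 held 1.37% of the control and 1.82% of the treated counts.

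**Figure D2:**
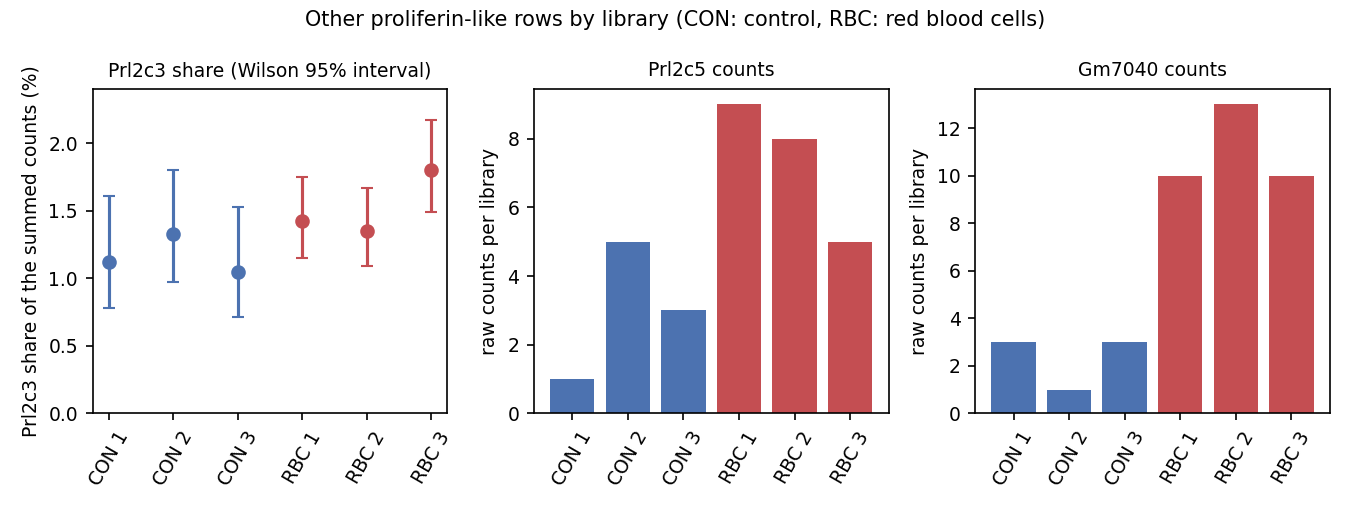
Left, the share of Prl2c3 in the summed Prl2c2 and Prl2c3 counts of each library in percent, with Wilson 95% intervals; middle and right, raw counts of Prl2c5 and Gm7040 per library, with controls in blue and libraries with red blood cells in red. The share stays between 1.04% and 1.80%, and neither other row passes 13 counts in any library.

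Other prolactin family genes had at most 19 counts in any library. Of 25 other family members looked for, 7 are listed in the tables used here and 1 had enough counts to be tested. That gene, Prl2a1, had 29 and 44 counts over the groups, with overlapping groups (log2 fold change 0.57 ± 0.35 SE, edgeR's adjusted p = 0.617). Prl7a1 had 33 and 22 counts, Prl7a2 8 and 6, and Prl7d1, the proliferin-related protein known to oppose proliferin's action on vessels, 5 and 1. Prl3d2, a placental lactogen gene, had 2 and 2, and Prl4a1 1 and 1. Prl itself and Prl2c1 are not listed.

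Most markers looked for of the trophoblast lineage, in which proliferin is classically made, were not listed or were near 0. Of 18 looked for, 11 are listed, and 7 of these had under 10 counts over all libraries. The other 4 were tested, and edgeR called 0 of them, with 1 at an unadjusted p under 0.05. The transcription factors Gata2, Gata3 and Eomes had 18.7 ± 1.03, 4.83 ± 0.73 and 9.03 ± 0.33 CPM in the controls (SD, n = 3). Plac1, a placental membrane protein, had 1.32 ± 0.27 CPM there. Hand1, which drives giant cell formation, and Tpbpa, a marker of giant cell precursors, had 1 count each over the controls and 0 over the treated libraries. The summed level of the list was 32.1 to 35.3 CPM in the controls and 29.6 to 32.1 CPM with red blood cells. Any link between these markers and the proliferin level was not tested.

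Hemoglobin transcripts were also higher with red blood cells. The globin Hbb-bs had 25, 25 and 31 counts in the controls and 6296, 6345 and 5346 with red blood cells. Of 5 tested erythroid markers, of 8 in the list, only Hbb-bs reached the filter on low counts in both groups. It was called higher (edgeR's adjusted p = 1.97e-09). Hba-a1, Hba-a2, Hbb-bt and Alas2 reached the filter only through the treated libraries, so their calls are not used. Over the groups Hba-a1 had 37 and 7497 counts, and Alas2, an enzyme of heme synthesis, 9 and 1728. The list summed to 3.24 to 3.87 CPM in the controls and 538 to 623 CPM with red blood cells. Among its untested members, Epb42, a protein of the red cell membrane skeleton, had 0 and 2 counts over the groups, and Klf1, an erythroid transcription factor, 20 and 12. Leukocyte markers that reached the filter in both groups, the macrophage genes Cd68 and Csf1r, had log2 fold changes of 0.05 and -0.02 without a call (edgeR's adjusted p = 0.832 and 0.959). Ptprc, Cd74 and Lyz2 reached it only through the treated libraries, so their calls are not used. Ptprc had 0 counts in every control and 12, 13 and 11 with red blood cells, Cd74 had 0 in every control and 19, 21 and 27, and Lyz2 had 3, 5 and 6 against 31, 33 and 19. Ms4a1 had 0 and 20 counts over the groups. The list, with 8 of 9 genes listed, summed to 41.7 to 48.0 and 48.5 to 52.8 CPM. The controls, with erythroid sums of 3.24 to 3.87 CPM, already held 148 CPM of Prl2c2; the part of added cells in the difference was not tested. In bulk RNA, more cells making a transcript and more transcript per cell cannot be told apart.

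Among all genes, calls were uncommon, and this is the background for the lists below. Of 11208 genes in edgeR's quasi-likelihood fit, 164 (1.46%) had a Benjamini-Hochberg adjusted p under 0.05, 130 (1.16%) higher and 34 (0.303%) lower with red blood cells; 1120 had an unadjusted p under 0.05. The median log2 fold change over all of them was -0.0027. Without control replicate 2, 899 of 11297 tested genes were called, 473 higher and 426 lower. Without control replicate 1 or 3 these were 105 and 16 or 107 and 11, and without treated replicate 1, 2 or 3 the higher calls were 70, 60 and 76 and the lower calls 2, 2 and 3.

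No gene of the receptor side of proliferin was called. Of 11 genes of the mannose 6-phosphate receptor pathway 10 were tested and 0 passed (median log2 fold change 0.06; 1 at an unadjusted p under 0.05, and 0 called by DESeq2). Igf2r, the receptor that binds proliferin, had 4.18 ± 0.74 CPM in the controls and 4.75 ± 0.17 CPM with red blood cells (SD, n = 3; log2 fold change 0.19 ± 0.15 SE, edgeR's adjusted p = 0.68). The groups overlapped, and per length it was scarce, with 0.47 and 0.53 FPKM against 144 and 318 for Prl2c2. Nagpa, which uncovers the mannose 6-phosphate tag, had the smallest p of the list (log2 fold change 0.16 ± 0.07 SE, adjusted p = 0.484), and the sorting adaptor Gga2 had 0.07 (adjusted p = 0.684). Igf2, another ligand of Igf2r, had 7 and 10 counts over the groups.

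The receptor of prolactin itself was at the limit of detection. Prlr had 0 and 2 counts over the groups, and Ghr, the growth hormone receptor, 1 and 0. Of 14 genes of this JAK-STAT list 10 were tested, and 0 passed in edgeR or DESeq2 (median log2 fold change 0.04; 0 at an unadjusted p under 0.05). The feedback inhibitor Socs3 had the smallest p, at 6.58 ± 0.83 and 7.58 ± 0.56 CPM (edgeR's adjusted p = 0.612), with overlapping groups. The phosphatase Ptpn11 and the inhibitor Socs7 both had 0.11 (adjusted p = 0.652 and 0.698).

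Genes of the Gi protein and MAP kinase response had no call. Of 17 tested members, of 19 in the list, 14 had a negative log2 fold change, 2 had an unadjusted p under 0.05 and 0 were called by edgeR or DESeq2 (median -0.08, against -0.0027 over all genes). The ETS factors Etv4 and Etv5, which MAP kinase signalling induces, had the smallest p. Etv4 had 2.45 ± 0.54 and 1.49 ± 0.02 CPM (log2 fold change -0.71 ± 0.21 SE, edgeR's adjusted p = 0.234). Etv5 had 6.61 ± 1.44 and 4.44 ± 0.37 CPM (-0.57 ± 0.17, adjusted p = 0.256), and without control replicate 2 it was called lower (-0.73, adjusted p = 0.000142). The fit without that control called 899 of all 11297 tested genes. In the main fit Gnai2, a Gi subunit, had a log2 fold change of -0.12 (edgeR's adjusted p = 0.543).

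In the AP-1 list 1 of 12 tested members, of 16, was called. Junb, a Jun family member, rose from 26.3, 28.3 and 26.7 CPM in the controls to 46.8, 41.1 and 44.8 CPM. The groups did not overlap, and the log2 fold change was 0.71 ± 0.07 (SE; edgeR's adjusted p = 0.00148). It was called with each library left out in turn, at adjusted p from 2.92e-14 to 0.0168. The classical AP-1 partners did not pass: Jun had 151 ± 1.72 and 147 ± 2.93 CPM (adjusted p = 0.813), and Fos had 39 and 23 counts over the groups (log2 fold change -0.77 ± 0.38 SE, adjusted p = 0.551). Atf3, Myc and Fosl1 had log2 fold changes of 0.58, 0.16 and 0.13 without a call (adjusted p = 0.0991, 0.427 and 0.427). The list's median was -0.02. Without control replicate 2 there were 5 called members, Junb, Atf3, Myc and Fosl1 higher and Fosb lower. That fit called 899 of all 11297 tested genes.

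The other partner at the composite element, the glucocorticoid receptor Nr3c1, had 120 ± 9.05 and 112 ± 4.71 CPM, with overlapping groups (log2 fold change -0.10 ± 0.07 SE, edgeR's adjusted p = 0.652). Of 11 tested genes of its list, of 12, 1 was called, lower. Tsc22d3, the glucocorticoid-induced leucine zipper protein, fell from 17.5, 17.8 and 16.8 CPM in the controls to 12.7, 13.5 and 13.5 CPM (log2 fold change -0.39 ± 0.07 SE, adjusted p = 0.04). This call was lost without control replicate 1 or 3 or without any treated library (adjusted p from 0.103 to 0.244), and with the replicate number as a block (adjusted p = 0.111). Fkbp5 and Per1, other classical targets, were not called, and the median of the list was -0.0014. Sgk1 and Cebpd had log2 fold changes of -0.20 and 0.46 (adjusted p = 0.128 and 0.336). Without control replicate 2 there were 4 called members, with Cebpd higher and Nr3c1, Sgk1 and Tsc22d3 lower. Calls over all genes in that fit were 899 of 11297.

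Growth factors and receptors, which drive proliferin in cultured cells, had 1 call among 14 tested members of 17. Fgfr1, a receptor of fibroblast growth factors, rose from 109, 107 and 109 CPM in the controls to 132, 132 and 129 CPM (log2 fold change 0.28 ± 0.05 SE, edgeR's adjusted p = 0.034). Its call was lost without control replicate 1 or 3 or any treated library (adjusted p from 0.107 to 0.239) and with the replicate block (adjusted p = 0.12). Pdgfra, a receptor of platelet-derived growth factor, missed the threshold with 8.23 ± 1.35 and 12.4 ± 0.34 CPM (0.59 ± 0.12, adjusted p = 0.0536) and passed in DESeq2 (adjusted p = 0.00575) and without control replicate 2, where Tgfbr2, a receptor of transforming growth factor beta, was called lower. The fit without control replicate 2 called 899 of all 11297 tested genes. In the main fit Egfr and Hbegf had log2 fold changes of 0.43 and -0.16 (edgeR's adjusted p = 0.319 and 0.488). The list had a median of 0.08.

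Cell cycle genes were not called. Of 12 tested, 0 passed in edgeR or DESeq2, 0 had an unadjusted p under 0.05, and the median log2 fold change was -0.04. Top2a, a topoisomerase of dividing cells, had 746 ± 45.5 and 818 ± 14.5 CPM (SD, n = 3; 0.13 ± 0.06 SE, edgeR's adjusted p = 0.523). Mcm5, of the replicative helicase, had 697 ± 7.85 and 752 ± 12.4 CPM (adjusted p = 0.527) and was the 1 member called without control replicate 2. Ccne1, a cyclin of the entry into S phase, had -0.13 (adjusted p = 0.543). Across all 8 lists, 3 of 87 tested genes were called (3.45%, against 1.46% of all tested genes), 2 higher and 1 lower. Without control replicate 2, where 899 of all 11297 tested genes were called, these were 8 and 6. With any other library left out they were 1 and 0.

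**Figure D3:**
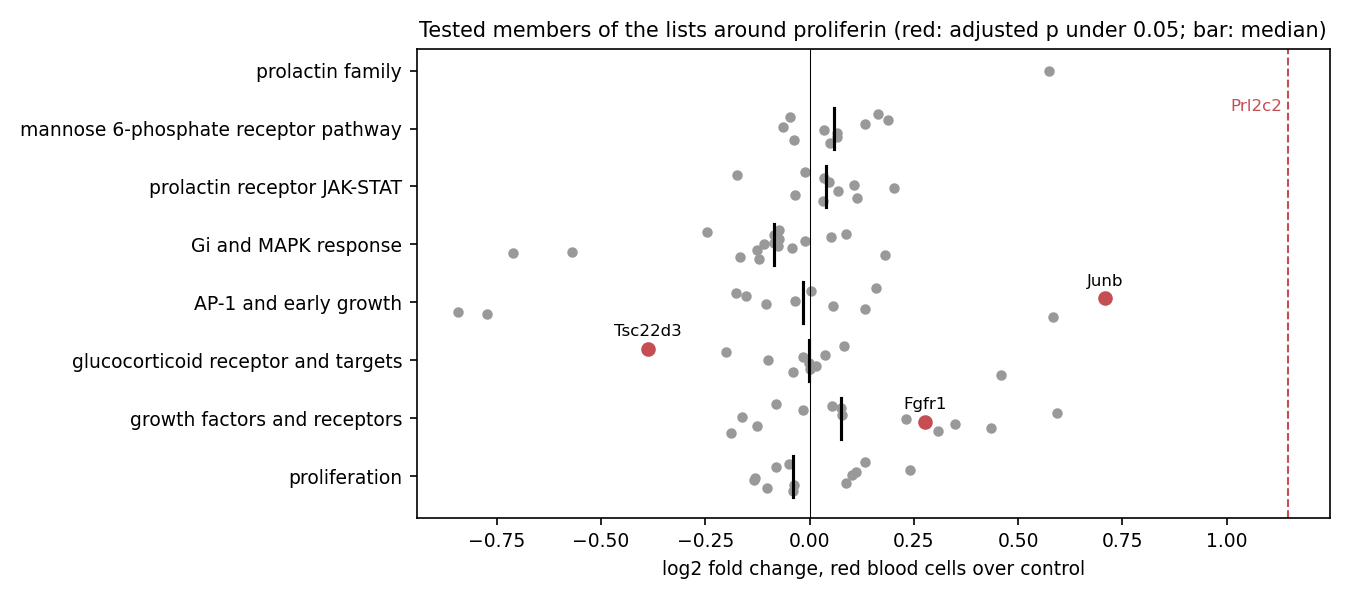
Log2 fold change with red blood cells over control for each tested gene of the 8 lists; red points had an edgeR adjusted p under 0.05, black bars are list medians for lists with more than a single tested gene, and the dashed line is Prl2c2 at 1.15. All tested members lie to the left of that line, with Junb the farthest right at 0.71 and medians between -0.08 and 0.08.

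The tested genes next to the 2 proliferin copies on chromosome 13 had smaller log2 fold changes, and none was called; Prl2c5 and Gm7040, described above, had too few counts to be tested. No other listed gene lies between Prl2c3 and Prl2c2. Of the 10 listed genes on each side, in gene order of the RefSeq table, 12 had enough counts and 0 were called by edgeR or DESeq2 (2 at an unadjusted p under 0.05), with log2 fold changes from -0.26 to 0.33 and a median of 0.06. The nearest tested neighbour on the Prl2c3 side was Ero1b, an oxidase of protein folding, at 0.09 ± 0.09 (SE; edgeR's adjusted p = 0.752), followed by Edaradd, with 1 and 1 counts, and the galectin Lgals8 at 0.04 (adjusted p = 0.802). On the other side lay Prl2c5, then Gm2423, a transcribed pseudogene with 32.9 ± 4.76 and 27.4 ± 1.16 CPM (-0.26 ± 0.10 SE, adjusted p = 0.427), then Gm7040. Without control replicate 2, Gm7040 reached the filter, only through its treated libraries, and was the 1 neighbour past the threshold; that call is not used.

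**Figure D4:**
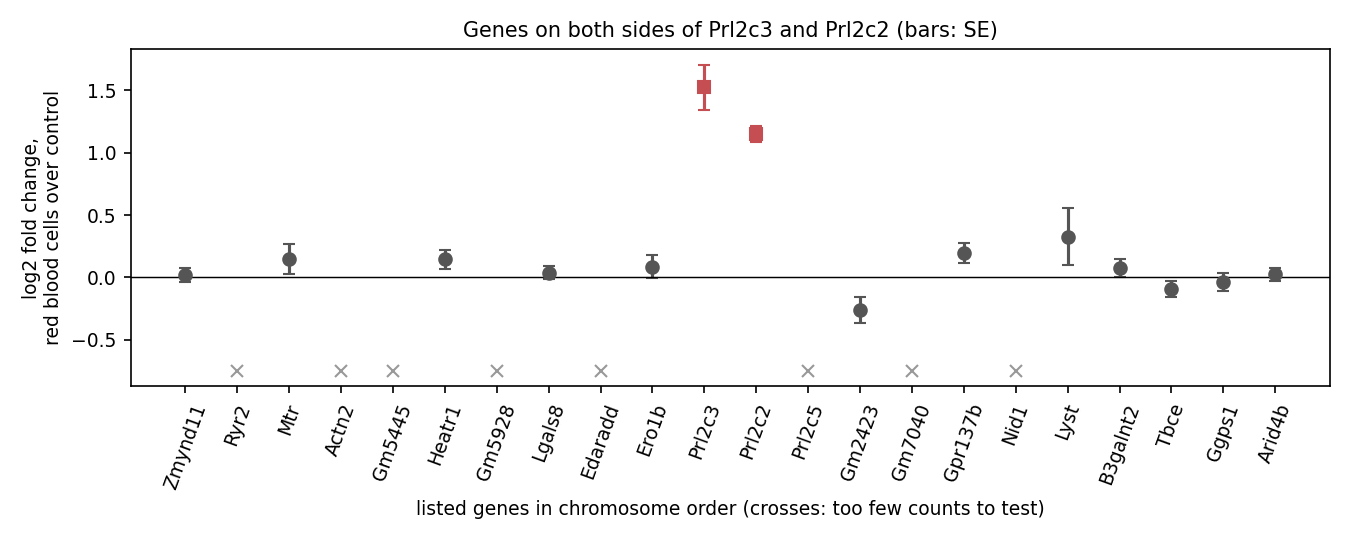
Log2 fold change with its SE for the listed genes in chromosome order around Prl2c3 and Prl2c2 (red squares, shown as a description); grey crosses mark genes with too few counts to test. The 2 proliferin genes stand at 1.52 and 1.15, and the tested neighbours between -0.26 and 0.33.

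The 8 genes whose levels ran most like the summed proliferin counts over the 6 libraries were C1s1, Relb, Nfkbia, Cyp26b1, Slpi, Afap1l2, Tmem176b and Cx3cl1. Likeness was the root mean square distance between log2(CPM + 0.5) values, each taken relative to the gene's control mean, over 8861 other genes of at least 10 CPM, whose median distance was 0.82. The closest was C1s1, a protease of the complement cascade (0.07), with 6.26, 6.42 and 6.28 CPM in the controls and 15.6, 15.8 and 15.05 CPM with red blood cells. Next came the NF-kB subunit Relb (0.08) and Nfkbia, the NF-kB inhibitor (0.10). Cyp26b1, which breaks down retinoic acid (0.14), the secreted protease inhibitor Slpi (0.16), the adaptor Afap1l2 (0.17), the membrane protein Tmem176b (0.20) and the chemokine Cx3cl1 (0.21) completed the 8. Their log2 fold changes ran from 0.89 to 1.29. All points share the same 6 libraries and the distance includes the step between groups, so the order among these genes is a description. Of the 8, 3 were also among the 8 with the highest Pearson correlation.

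**Figure D5:**
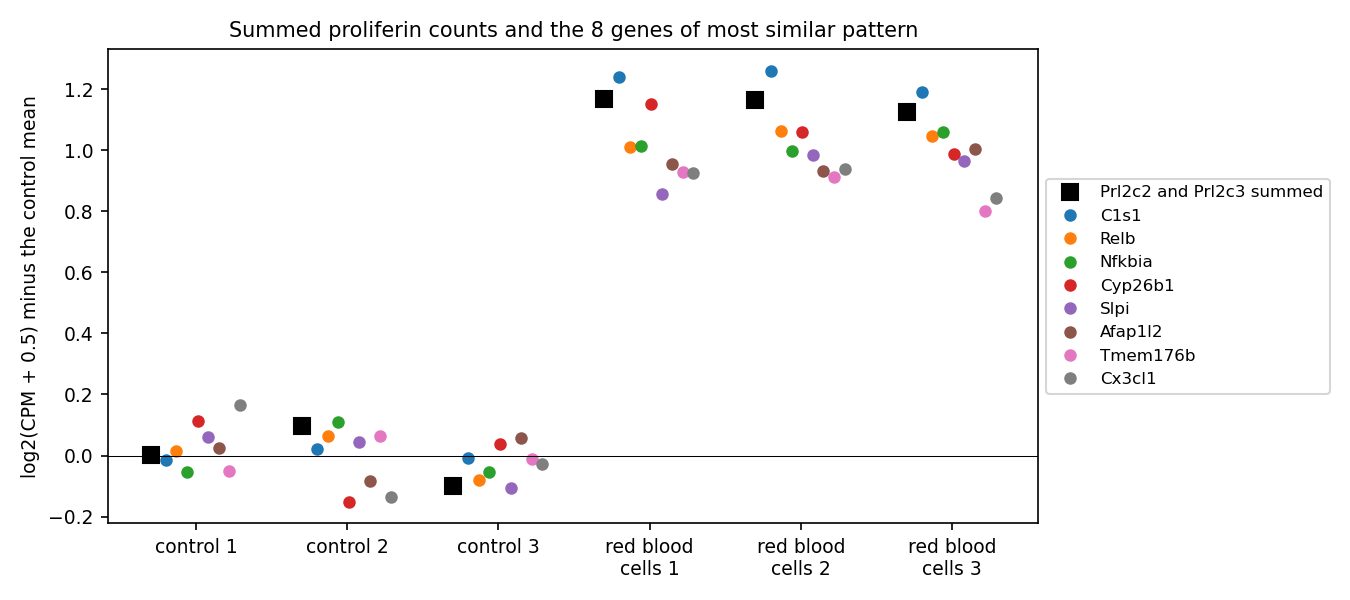
Log2(CPM + 0.5) minus the gene's control mean in each library for the summed Prl2c2 and Prl2c3 counts (black squares) and the 8 genes of smallest distance to them (coloured points, offset sideways for legibility). The 8 genes lie between -0.15 and 0.16 in the controls and between 0.80 and 1.26 with red blood cells. The proliferin values there are 1.12 to 1.17, and in each treated library C1s1 lies above the proliferin value and the other genes below it.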

How the data were processed

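The authors deposited raw counts per gene as whole numbers and FPKM values of the same 15528 genes, the counts not normalized. Libraries were made from TRIzol RNA with a stranded mRNA kit, per the labels' protocols, and the genome build is GRCm39, per the submitters' processing notes; aligner, counter, strand setting and annotation were not given in the sources used here. Columns were matched to samples by the sample titles.

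The test used edgeR 4.0.16 (R 4.3.3): filterByExpr (minimum count 10, minimum total 15; 11208 genes with 99.96% of the counts), TMM scaling, group as the design, glmQLFit and glmQLFTest, two-sided, Benjamini-Hochberg adjusted over all genes tested, called under 0.05. CPM use the total of all listed counts. DESeq2 1.42.0 and limma 3.58.1 (voom) were alternatives, with RLE scaling, library size only, other filters, a replicate block and each library left out. The script was tested on simulated data with known changes. It called 41.8% of the simulated 1.25-fold changes, 94% of the 1.5-fold and 100% of the 2-fold ones. Small changes can therefore go uncalled. The main fit did not pair samples by replicate number, and the values do not settle whether the numbers mark pairs.

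Members and lists were chosen with earlier results of these data known. Named genes were the members, called list members, up to 3 further members per list by p, genes of known role, the 8 most alike and the 3 nearest neighbours on each side; a few others were named after their values were seen. Transcripts were compared with Biopython 1.88 from a GRCm38 annotation, so coordinates of the deposited counts are not given.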

Additional observations from a re-analysis of the deposited data

How the results depend on the processing

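The log2 fold changes of Prl2c2 and of the sum moved by less than the spread between replicates under RLE scaling, library size only, DESeq2, the replicate block, FPKM and each library left out. With a library left out they ranged from 1.10 to 1.20 for Prl2c2 and for the sum, and from 1.40 to 1.69 for Prl2c3. Taking the summed row in place of Prl2c3 gave 1.15 against 1.52, since Prl2c2 holds most of the sum. Adding Prl2c5 and Gm7040, chosen after seeing the data, gave 1.15. Calls over all genes ranged from 60 to 473 higher and 2 to 426 lower with a library left out, with 67 lower in DESeq2 and 13 lower with the replicate block. Called list members ranged from 1 to 8 higher and 0 to 6 lower, with 1 higher and 0 lower with the replicate block, and called neighbours from 0 to 1, the 1 being Gm7040, which reached the filter only through its treated libraries; the cause was not tested. Same-numbered samples had correlations of deviations of -0.03, 0.04 and 0.07, and 4 of 6 samples correlated best with their own number. The 8 most alike genes shared 3 with the choice by Pearson correlation and 7 with each of the other choices tried. No difference in Prl2c5 or the other listed prolactin family members was called by edgeR, also with the filter on low counts left off. At a few counts per library this does not show that their levels were equal.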
